A study of Rattus with 8 samples.

Results

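miR-296 and miR-298 are a pair of neighbouring microRNAs (miRNAs) of the imprinted Gnas region, and each precursor hairpin gives a mature miRNA from its 5p and from its 3p side. Their 4 mature arms, rno-miR-296-5p, rno-miR-296-3p, rno-miR-298-5p and rno-miR-298-3p (without the rat prefix from here on), were taken by name from the 615 mature miRNAs listed in the rat hippocampus. Small RNA had been sequenced from 4 rats that underwent cardiopulmonary bypass with deep hypothermic circulatory arrest (the CPB/DHCA group) and from 4 controls with a sham operation, 1 library per rat. All were male Sprague-Dawley rats aged 9 weeks, anaesthetized with sevoflurane, intubated and cannulated, and the hippocampus was taken 24 h after the procedure. In the CPB/DHCA group, normothermic bypass for 5 min was followed by cooling to 18 °C over 30 min, circulatory arrest for 30 min and rewarming for about 60 min, whereas control rats received neither bypass nor arrest. Rats that died within 24 h were not included by the study, so the CPB/DHCA group consists of survivors, and effects of bypass, cooling and arrest cannot be told apart.

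Imprinted genes are expressed from the copy inherited from only the mother or only the father. Gnas itself encodes the stimulatory G-protein alpha subunit, which couples hormone and transmitter receptors to cyclic AMP, and the same region makes several other transcripts from alternative promoters. In the mouse, the miR-296 and miR-298 hairpins lie in the paternally expressed antisense transcript Nespas. Mature miRNAs are loaded into Argonaute proteins and guide them to mRNAs that pair with the seed, bases 2 to 8 of the miRNA. miR-296 is known as a growth-factor-induced miRNA of human endothelial cells and as a regulator of Nanog in differentiating mouse embryonic stem cells, and miR-298 represses the mRNA of the beta-secretase Bace1 in mouse neuronal cells. In the RefSeq gene table of the GRCr8 assembly, Mir296 and Mir298 follow each other with no gene listed between them, and Gnas is the next gene. The deposited files use the rn6 build, so no coordinates are given here.

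The sequences of all 4 arms, as deposited, are shown because they carry no seed in common. Which mRNAs they act on was not tested. Capitals mark the seed.
miR-296-5p: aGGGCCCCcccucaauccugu
miR-296-3p: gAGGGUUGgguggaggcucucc
miR-298-5p: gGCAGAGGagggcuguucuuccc
miR-298-3p: aGGAACUAgccuucucucugcu
None of the other miRNAs in the table shared bases 2 to 8, or bases 2 to 7, with any of the arms. No other listed sequence shared a run of 12 bases with them either. As reads of at least 15 nt were aligned with up to 1 mismatch, this does not exclude reads shared with another listed sequence. Bases 2 to 7 of miR-296-5p are their own reverse complement, a property of 10 of the 615 miRNAs (1.63%). Its run of 7 C was found in only 1 other miRNA of the table, miR-1249. G and C made up 66.7% of miR-296-5p, 68.2% of miR-296-3p and 65.2% of miR-298-5p, against a median of 47.8% over all the miRNAs listed. For miR-298-3p this share was 50.0%. Between 4.23% and 7.80% of all the miRNAs were as rich in G and C as those 3 arms. When the arms of a hairpin were folded against each other, 17 base pairs formed between those of miR-296 (predicted energy -25.9 kcal/mol) and 19 between those of miR-298 (-29.1 kcal/mol).

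All 4 arms were rare to moderately abundant in the hippocampus, and miR-296-5p made up most of their tags. Library totals were 620133 to 772840 counts in the control group and 508574 to 672378 in the CPB/DHCA group. CPM are tags per 1000000 tags of the library after TMM scaling (edgeR's trimmed mean of M values), and 1 tag was worth between 1.20 and 2.00 CPM. The library totals cover listed miRNAs only, 25.3% to 26.8% of the aligned tags that the authors' own scaling implies. CPM are therefore higher than the authors' TPM (tags per 1000000 aligned tags), at 59.5 against 15 for miR-296-5p in control 1. Since no count below 2 was listed, empty cells hold 0 or 1 tag, and they were read as 0. Over the 8 libraries miR-296-5p had 295 tags, miR-298-5p 67, miR-298-3p 30 and miR-296-3p 14. All 4 passed the filter of at least 10 counts in total and a listing in at least 4 libraries, which left 467 miRNAs for the comparison of the groups. Among these, ordered by mean CPM, miR-296-5p ranked 240, miR-298-5p 342 and miR-296-3p 443, with miR-298-3p between the latter. Among the libraries, CPB/DHCA 3 and CPB/DHCA 4 stood apart in the summed levels of some cell type lists. For CPB/DHCA 3 these were the lists of oligodendrocytes and neurons (values beside miR-298-5p). For CPB/DHCA 4 it was the list of choroid plexus and ependyma, at 34728 CPM against 1208 to 4186 in the other 7. The most abundant arm of that list, miR-200a-3p, had 6234 ± 12440 CPM for CPB/DHCA and 187 ± 358 for controls (SD, n = 4 each). The next, miR-34c-5p, had 1401 ± 1016 and 1858 ± 854 CPM. Of its 10 arms tested, 6 had log2 fold changes below 0, so the sum is not a rise of the whole list. Levels of different miRNAs are compared here as tags, whose yield depends on how well each sequence is ligated and amplified, and how far that moved these counts was not tested.

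miR-296-5p, the leading arm of its hairpin, did not differ detectably between the groups. Its normalized CPM were 59.5, 64.6, 81.8 and 33.6 in controls 1 to 4, from 39, 54, 59 and 21 tags. In CPB/DHCA 1 to 4 they were 51.3, 44.1, 62.8 and 37.3, from 35, 22, 44 and 21 tags. Both the highest and the lowest library belonged to the control group, and all the CPB/DHCA libraries lay within its range. Means ± SD (n = 4 each) were 59.9 ± 20.0 CPM for controls and 48.9 ± 10.9 CPM for CPB/DHCA. The log2 fold change was -0.29 ± 0.29 (SE), with a 95% interval from -0.94 to 0.36 (edgeR's quasi-likelihood test, unadjusted p = 0.34, adjusted p = 0.93). Changes below 0.522-fold or above 1.28-fold lie outside that interval. With 1 library left out it ranged from -0.48 (without control 4) to -0.10 (without control 3), and it was -0.43 without CPB/DHCA 3 and -0.18 without CPB/DHCA 4. It did not pass the thresholds in any of these fits. An exact two-sided permutation test gave p = 0.40, where 4 libraries against 4 cannot go below 0.029. In order of level the libraries ran control 4, CPB/DHCA 4, CPB/DHCA 2, CPB/DHCA 1, control 1, CPB/DHCA 3, control 2 and control 3, and the 95% counting intervals of neighbours in this order overlapped. The highest control library, at 62.3 to 105.5 CPM by its counting interval, did not overlap the lowest, at 20.8 to 51.3. The tags of the control libraries varied by 4.35 times what counting error alone gives (chi-square per degree of freedom), and those of the CPB/DHCA libraries less so.

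**Figure D1:**
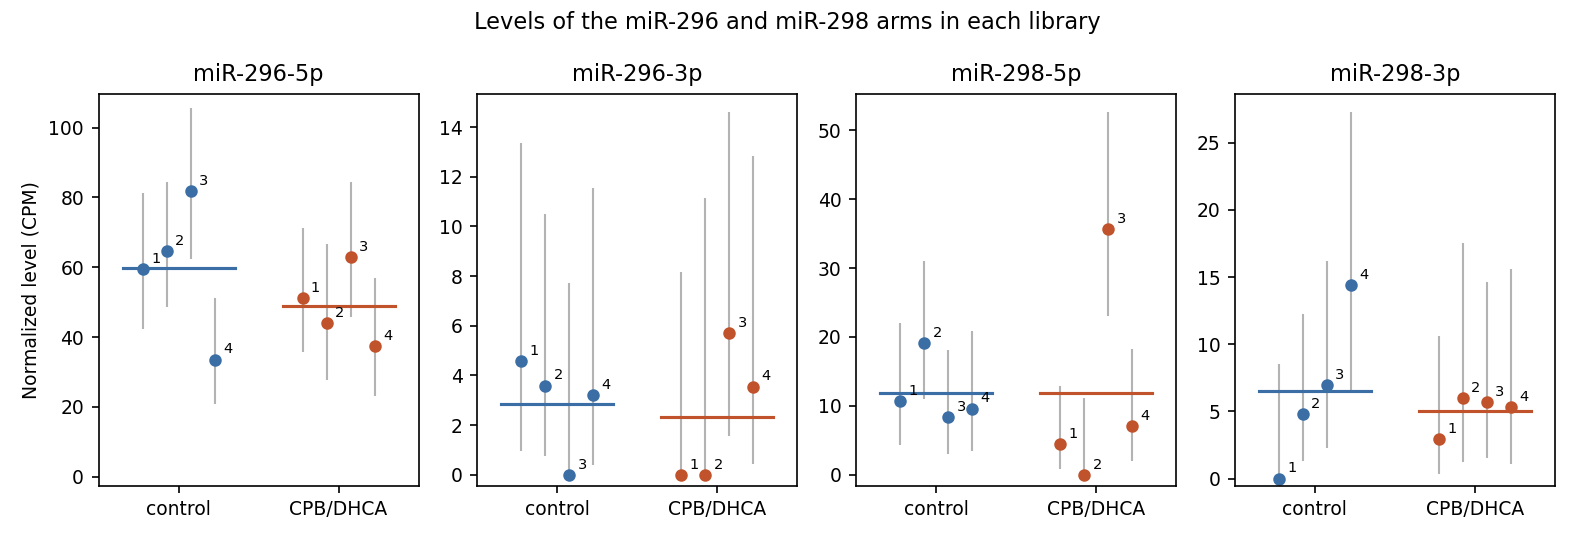
Normalized level (CPM) of each arm in the control and CPB/DHCA libraries, 1 point per library with its replicate number, the group mean as a horizontal line and the exact 95% counting interval as a grey bar (with the upper limit of 1 tag where the cell was empty); each panel has its own scale. The groups overlap in every panel, and CPB/DHCA 3 stands above the other libraries for miR-298-5p at 35.7 CPM.

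miR-298-5p had nearly the same mean in both groups, but the spread within the CPB/DHCA group was wide. Its CPM were 10.7, 19.1, 8.32 and 9.59 in controls 1 to 4, from 7, 16, 6 and 6 tags. In CPB/DHCA 1 to 4 they were 4.39, 0, 35.7 and 7.11, from 3, 0, 25 and 4 tags. CPB/DHCA 3 was the highest of all 8 libraries, and the other CPB/DHCA libraries were the lowest of all. The empty cell of CPB/DHCA 2 can hold 1 tag, which would be 2.00 CPM, with an upper 95% counting limit of 11.2 CPM. Means ± SD (n = 4 each) were 11.9 ± 4.91 CPM for controls and 11.8 ± 16.2 CPM for CPB/DHCA, and the log2 fold change was 0.04 ± 0.80 (SE, 95% interval -1.75 to 1.83, edgeR unadjusted p = 0.96, adjusted p = 0.998). The exact two-sided permutation test gave p = 1.00. Tags of miR-298-5p varied between the CPB/DHCA libraries by 13.1 times what counting error gives and between the control libraries by 1.54 times. Against control 2, the next highest library, CPB/DHCA 3 had 1.86 times the level (95% exact interval 0.957 to 3.74, counting error only).

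Without CPB/DHCA 3, the direction of miR-298-5p turned and its size grew. The remaining CPB/DHCA libraries had 3.83 ± 3.59 CPM (SD, n = 3) and all lay below the lowest control library, which had 8.32 CPM. The log2 fold change was then -1.56, with an unadjusted p of 0.053 and an adjusted p of 0.66 in edgeR, so it did not pass the threshold. The exact two-sided permutation test gave p = 0.057, the smallest that 3 libraries against 4 allow. In the same comparison 3.85% of all the miRNAs tested had CPB/DHCA libraries that all lay below the control libraries. The library was singled out here for its value, so these figures describe how much it decides. Without CPB/DHCA 4 the log2 fold change was 0.20, and with limma on the authors' TPM it was below 0 at every pseudocount tried.

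CPB/DHCA 3 also stood apart in the summed levels of the oligodendrocyte and neuronal marker lists. The summed level of the oligodendrocyte miRNAs (5 arms of miR-219a and miR-338) was 23258 CPM in this library and 5361 to 12311 in the other 7. The summed level of the neuronal miRNAs (9 arms of miR-124, miR-128, miR-132 and miR-137) was 37290 CPM there and 56174 to 122923 in the others. These lists were dominated by miR-219a-2-3p and miR-128-3p, with means of 8068 and 79122 CPM over the 8 libraries. Endothelial miR-126a, with both arms, summed to 2036 CPM in CPB/DHCA 3, just below the 2105 to 2633 in the others. The smooth muscle and fibroblast list was also just below, at 2435 CPM against 2448 to 7544. Within the range of the others lay the lists of erythrocytes (153 CPM, others 96.9 to 190) and leukocytes (524, others 482.5 to 706). That of choroid plexus and ependyma did too (3727, others 1208 to 34728). Only listed arms enter these sums, so a marker without any listed tags would not show in them. No arm of miR-126b, also on the endothelial list, was listed. The part of these differences in the level of miR-298-5p was not tested. In bulk tissue, fewer cells of a type and less RNA per cell cannot be told apart.

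The 3p arms were too rare for a change of moderate size to be seen. miR-296-3p had 3, 3, 0 and 2 tags in controls 1 to 4, at 4.58, 3.59, 0 and 3.20 CPM. In CPB/DHCA 1 to 4 it had 0, 0, 4 and 2 tags, at 0, 0, 5.71 and 3.55 CPM. The groups overlapped over nearly their whole range, and an empty cell that holds 1 tag would have 1.39 CPM in control 3, 1.46 in CPB/DHCA 1 and 2.00 in CPB/DHCA 2. Its log2 fold change was -0.20 ± 1.05 (SE, 95% interval -2.56 to 2.16, edgeR unadjusted p = 0.85, adjusted p = 0.998). With 1 tag in each empty cell it was 0.062, so the sign rests on how empty cells are read, and it was -1.17 without CPB/DHCA 3, where most of that group's tags were found.
miR-298-3p had 0, 4, 5 and 9 tags in the control libraries, at 0, 4.79, 6.93 and 14.4 CPM. In CPB/DHCA 1 to 4 it had 2, 3, 4 and 3 tags, at 2.93, 6.01, 5.71 and 5.33 CPM. The lowest and the highest library were both controls, and the CPB/DHCA libraries varied by 0.26 times what counting error gives. The log2 fold change was -0.37 ± 0.76 (SE, 95% interval -2.08 to 1.34, edgeR unadjusted p = 0.64, adjusted p = 0.99), and 0.28 without control 4, the library with 9 tags. Exact two-sided permutation tests gave p = 0.83 for miR-296-3p and p = 0.69 for miR-298-3p.

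Counted together, 0 of the 4 arms passed a fold change of 1.5 with an unadjusted p of 0.05, the thresholds of the study, and 0 passed at an unadjusted p of 0.05 alone or in DESeq2. Of all the 467 miRNAs tested, 34 passed both thresholds, which is 7.28%, and 0.214% passed at an adjusted p under 0.05, none of them an arm of miR-296 or miR-298. None of the arms had groups that did not overlap, against 4.71% of all the miRNAs tested. Of the log2 fold changes, 3 of 4 were below 0, with a median of -0.25, and over all the miRNAs tested 59.5% were below 0, with a median of -0.05. The summed level of the 4 arms was 60.7 to 97.1 CPM in the control group and 50.1 to 110 in the CPB/DHCA group. CPB/DHCA 3 had the 110 and CPB/DHCA 1, 2 and 4 had 50.1 to 58.6, a split made after its value was seen. Of the tags summed in a library, miR-296-5p made up 55.3% to 88.0%, and the sum was not tested. Within the CPB/DHCA group, CPB/DHCA 3 was the highest library for miR-296-5p, miR-296-3p and miR-298-5p, whereas for miR-298-3p it was exceeded by CPB/DHCA 2.

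**Figure D2:**
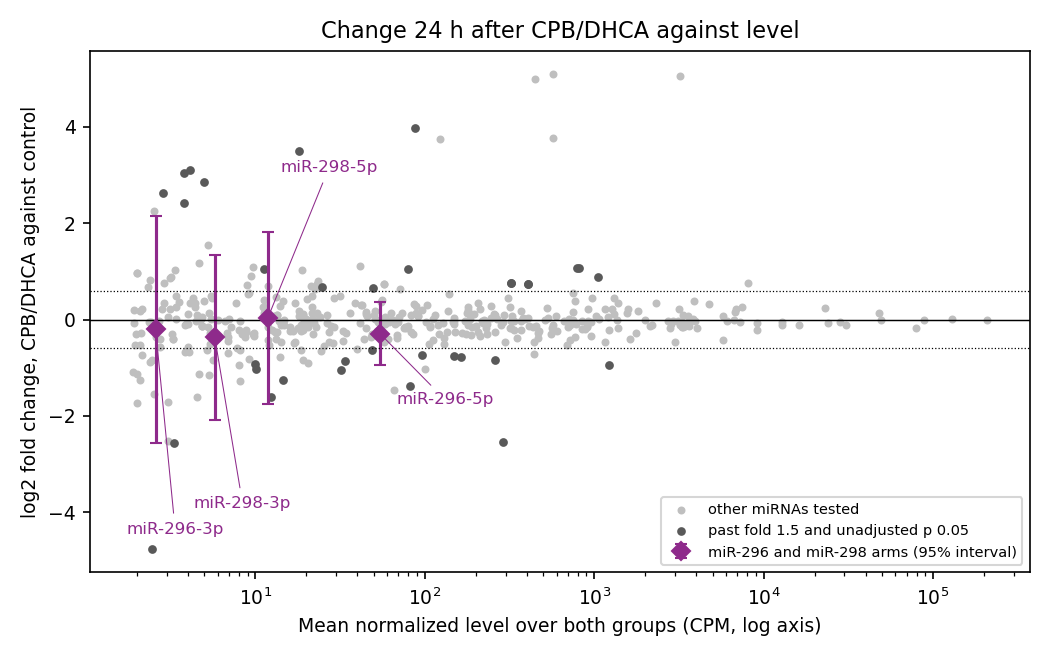
log2 fold change in the CPB/DHCA group against the control group for the 467 miRNAs tested, by mean normalized level (CPM, log axis); diamonds are the arms of miR-296 and miR-298 with their 95% intervals, dark points passed a fold change of 1.5 and an unadjusted p of 0.05, and dotted lines mark 1.5-fold. All 4 intervals include 0, and they run from -0.94 to 0.36 for miR-296-5p and from -2.56 to 2.16 for miR-296-3p.

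The hairpins differed in how one-sided they were. miR-296 was read almost wholly from its 5p arm, which had more tags than the 3p arm in 8 of 8 libraries. The 5p arm took 95.6% of the tags of miR-296 in the control group (173 tags against 8 of the 3p arm, 95% exact Clopper-Pearson interval 91.5% to 98.1%) and 95.3% in the CPB/DHCA group (122 tags against 6, 90.1% to 98.3%). In single libraries its share lay between 91.3% and 100%, in both groups.
miR-298 had a more even split. Its 5p arm took 66.0% of the tags in the control group (35 of 53, 51.7% to 78.5%) and 72.7% in the CPB/DHCA group (32 of 44, 57.2% to 85.0%). These intervals pool the tags of 4 rats and cover counting error only, and in single libraries the share ran from 40.0% to 100% for controls and from 0% to 86.2% for CPB/DHCA. The 5p arm was ahead in 6 of 8 libraries. In control 4, the 3p arm led with 9 tags against 6, and in CPB/DHCA 2 with 3 against 0. Without CPB/DHCA 3, where 25 of 29 tags came from the 5p arm, the 3p arm led in the CPB/DHCA group with 8 tags against 7, and the share of the 5p arm was 46.7%.
Among hairpins with both arms listed and at least 50 tags, 79 had the 5p arm ahead and 64 the 3p arm, and the leading arm took a median of 96.0% of the tags. miR-296, at 95.5% over all 8 libraries, was close to that median, while miR-298, at 69.1%, was less one-sided than most. Of these hairpins, 20 were less one-sided than miR-298.

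**Figure D3:**
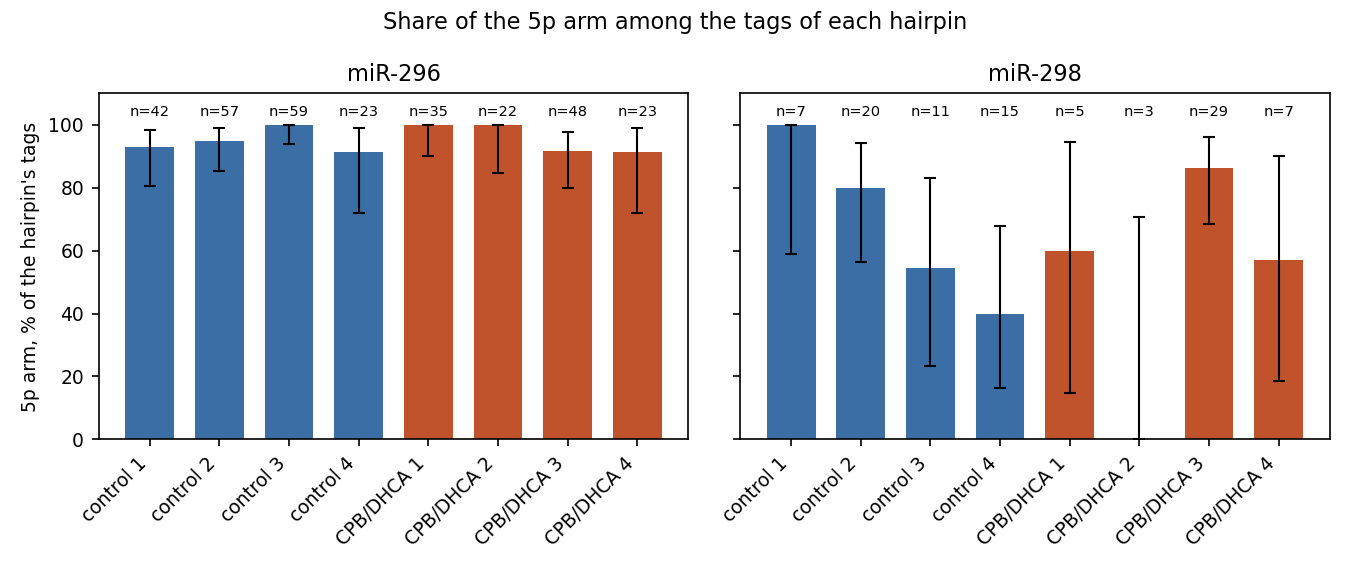
Share of the 5p arm among the tags of miR-296 and of miR-298 in each library, in percent, with the exact 95% interval and the number of tags (n) above each bar; blue bars are control and orange bars CPB/DHCA libraries. miR-296 lies between 91.3% and 100% throughout, and miR-298 between 0% (3 tags) and 100% (7 tags).

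The ratio of the neighbours varied between libraries. miR-296-5p exceeded miR-298-5p in 8 of 8 libraries, by 4.94 times over the control group (95% exact interval 3.42 to 7.33) and by 3.81 times over the CPB/DHCA group (2.57 to 5.82). In single libraries the ratio was 3.38 to 9.83 in the control group. In the CPB/DHCA group it was 11.7, 1.76 and 5.25 in CPB/DHCA 1, 3 and 4, and CPB/DHCA 2 had 22 tags of miR-296-5p and none of miR-298-5p. Without CPB/DHCA 3 the group ratio was 11.1 (5.16 to 28.6), above the interval of the control group in value but with an overlapping interval. These intervals cover counting error only.
Over the 8 libraries, log2 CPM of miR-296-5p and miR-298-5p had a Pearson correlation of 0.39 (Spearman 0.45). Between the arms of a hairpin it was -0.11 for miR-296 (Spearman 0.17) and -0.02 for miR-298 (Spearman -0.12). The highest value among the pairs, 0.76 (Spearman 0.85), joined miR-296-3p and miR-298-5p, both highest in CPB/DHCA 3 and without tags in CPB/DHCA 2. All these values share libraries and depth, and the 3p arms rest on a few tags.

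Of the miRNAs tested outside the Gnas region, those whose profile over the 8 libraries was most like miR-296-5p were miR-412-5p (Pearson correlation of log2 CPM 0.89), miR-542-3p (0.88) and miR-31a-3p (0.85, 12 tags in total). For miR-298-5p they were miR-341 (0.92), miR-7a-5p (0.91) and miR-34c-5p (0.88). miR-412-5p and miR-341 belong to the Dlk1-Dio3 cluster, another imprinted region, and the other miRNAs named as most similar do not. As 72 of the 463 miRNAs compared belong to that cluster, their presence is not read as a link between the regions. For miR-296-3p the nearest were miR-345-3p (0.89), miR-30b-3p (0.87) and miR-760-3p (0.86), and for miR-298-3p miR-195-3p (0.88), miR-504 (0.77) and miR-362-5p (0.74). These are the highest of 463 correlations for each arm, over 8 libraries, and no test was made of them. None of these miRNAs passed the fold change of 1.5 with an unadjusted p of 0.05.

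Other imprinted miRNAs were set beside those of the Gnas region. Imprinted miRNA genes include the large maternally expressed Dlk1-Dio3 cluster, miR-483 in an intron of the growth factor gene Igf2 and miR-335 in an intron of Mest. Ranked by mean CPM among the 86 imprinted miRNAs listed, miR-296-5p was at 43, miR-298-5p at 59, miR-298-3p at 67 and miR-296-3p at 78. The 4 arms of the Gnas region took 0.0739% to 0.176% of the summed CPM of imprinted miRNAs in a library, which was dominated by the Dlk1-Dio3 cluster, with 55836 to 70601 CPM.
Of 72 miRNAs of the Dlk1-Dio3 cluster that were tested, 3 passed both thresholds downwards and none upwards, against 3.43% of all miRNAs downwards and 3.85% upwards. They were miR-376a-3p, miR-668 and miR-136-5p, with log2 fold changes of -0.73 (standard error 0.30), -0.64 (0.26) and -0.87 (0.37) and an adjusted p of 0.53 each in edgeR. Its most abundant members, miR-127-3p and miR-136-3p, had -0.06 (standard error 0.12) and -0.03 (0.13), and the median of the cluster was -0.10.
Of the 3 listed arms of miR-335 and miR-483, 1 passed downwards, and all had log2 fold changes below 0, with a median of -1.60. It was miR-483-3p, at 18.7 ± 10.9 CPM for controls and 6.16 ± 1.29 for CPB/DHCA (SD, n = 4 each), with a log2 fold change of -1.60 ± 0.48 (SE, edgeR adjusted p = 0.53). miR-483-5p had -2.52 ± 1.13 (SE, unadjusted p = 0.051), with tags listed in only 1 of the 4 CPB/DHCA libraries, and miR-335 had -0.36 ± 0.61 (SE). H19-derived miR-675 is not among the listed names. Whether the miRNAs of the Gnas region differ in their response from those of these regions was not tested.

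**Figure D4:**
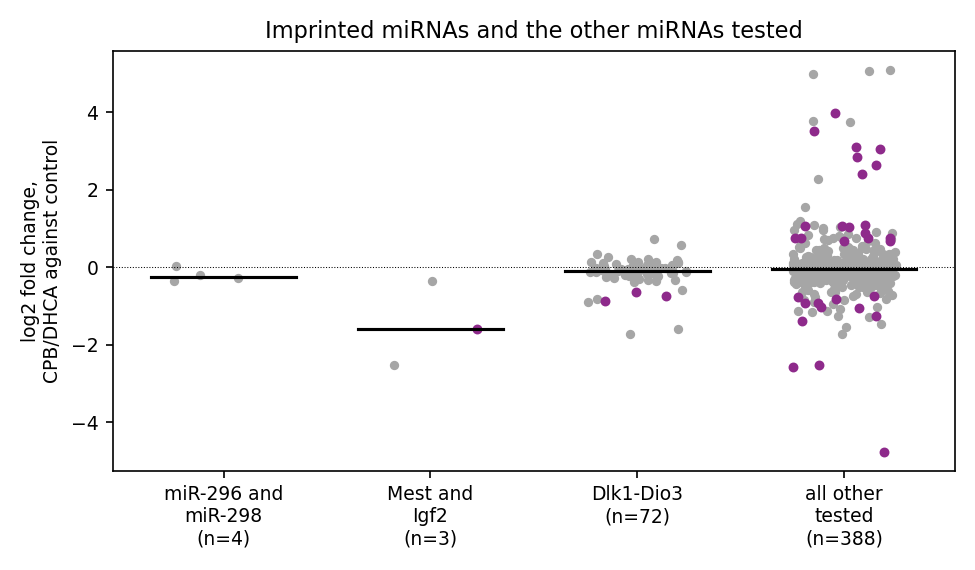
log2 fold change of each miRNA tested, grouped as the arms of miR-296 and miR-298 (n = 4), the other imprinted miRNAs of Mest and Igf2 (n = 3) and of the Dlk1-Dio3 cluster (n = 72), and all others (n = 388); lines are medians and purple points passed a fold change of 1.5 with an unadjusted p of 0.05. None of the arms of miR-296 and miR-298 passed, and their median was -0.25.

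Markers of endothelium, the cell type in which miR-296 is best known, showed little difference between the groups. miR-126a-5p and miR-126a-3p had log2 fold changes of -0.18 (standard error 0.15) and 0.23 (0.17), with unadjusted p values of 0.25 and 0.22 in edgeR, and neither passed both thresholds. Their summed level was 2105 to 2633 CPM in the control group and 2036 to 2487 in the CPB/DHCA group. Of 4 erythrocyte miRNAs tested, 3 passed upwards (miR-144-3p, miR-144-5p and miR-451-5p), while miR-486, the most abundant of them, had a log2 fold change of -0.13. The adjusted p in edgeR was 0.077 for miR-144-3p and 0.53 for both miR-144-5p and miR-451-5p. The latter pair rest on few tags, at means of 3.81 and 3.78 CPM over the 8 libraries, and their groups overlapped. Of 5 oligodendrocyte miRNAs tested, miR-219a-5p passed upwards and 1 had a log2 fold change below 0. miR-219a-5p had 505 ± 75.6 CPM for controls and 1069 ± 663 for CPB/DHCA (SD, n = 4 each, edgeR adjusted p = 0.53), and the groups overlapped. The sum of that list was highest in CPB/DHCA 3, at 23258 CPM against 5361 to 12311 in the other 7. miR-199a-5p was the 1 of 6 smooth muscle and fibroblast miRNAs past the thresholds, downwards (edgeR adjusted p = 0.53). None of the 4 leukocyte, 8 neuronal and 10 choroid plexus and ependyma miRNAs tested passed. Over all the miRNAs tested, 3.85% passed upwards and 3.43% downwards. The part of these markers in the levels of miR-296 and miR-298 was not tested.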

How the data were processed

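Hippocampal small RNA of 8 rats was sequenced by the authors, who trimmed adapters with cutadapt 1.9.3, aligned reads of at least 15 nt with Novoalign 3.02.12 (up to 1 mismatch) to precursors of miRBase and newly predicted precursors, and counted reads per mature miRNA. The processing notes name rn6; the miRBase release is not given in the sources used here. Raw tag counts were deposited on 669 lines, or 615 mature miRNAs, each used once. A deposited score, the TPM of the authors (tags per 1000000 aligned tags, rounded to whole numbers), was used for alternatives only. Of 4920 cells, 1175 were empty.

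The groups were compared on these counts with edgeR 4.0.16 in R 4.3.3 (TMM factors, glmQLFit, glmQLFTest, Benjamini-Hochberg adjustment over 467 miRNAs, group as the only term). Standard errors are the size of the log2 fold change divided by the square root of F. The study's thresholds (fold change 1.5, P 0.05) were applied, and its test for miRNAs is not given in the sources used here. Exact permutation tests (scipy 1.17.1) were run on CPM. Counting intervals are exact at 95%. Replicates are separate rats and differed by more than counting error. Arms were folded with RNAduplex of ViennaRNA 2.7.2. The fit was tested on simulated data with known fold changes.

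The members and lists were chosen with earlier results of these data known. The text names all 4 arms, miRNAs sharing a seed with them and the 3 most similar profiles for each arm. From each list it names the 2 most abundant or those past the thresholds. For the cell type lists these are those past the thresholds, the endothelial pair, miR-486, miR-200a-3p, miR-34c-5p, miR-219a-2-3p and miR-128-3p. miR-483-5p is given to complete its list of 3. miR-1249 and the description of CPB/DHCA 3 were added after values were seen. Alternatives were DESeq2 1.42.0, limma 3.58.1 on log2(TPM + pseudocount), other scalings, filters and readings of empty cells, a robust fit, the replicate block and leaving out each library.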

Additional observations from a re-analysis of the deposited data

How the results depend on the processing

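No arm passed a fold change of 1.5 with an unadjusted p of 0.05 under any alternative run, and the lowest unadjusted p was 0.053 (miR-298-5p without CPB/DHCA 3). Only the 5p arm of miR-296 kept its direction throughout, with log2 fold changes from -0.31 to -0.15 under other settings and from -0.48 to -0.10 with 1 library left out. miR-298-5p turned from 0.04 to -0.40, -0.0047 and -1.19 with limma on log2(TPM + 1), log2(TPM + 10) and log2(TPM + 0.1), and ranged from -1.56 to 0.43 with 1 library left out. miR-298-3p turned to 0.066 and 0.62 with pseudocounts of 1 and 0.1, and ranged from -0.76 to 0.28. miR-296-3p turned to 0.062 with empty cells at 1 tag, and ranged from -1.17 to 0.25. The cause was not tested. The stricter filter of 10 counts in 4 libraries removed miR-296-3p, miR-298-5p and miR-298-3p.

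The number of miRNAs past both thresholds, 34, was 12 with limma on log2(TPM + 10), 19 with miRBase miRNAs only (fewer were tested), and 18 to 44 with 1 library left out. The share of the 5p arm of miR-296 ranged from 93.4% to 96.4% for controls and from 93.5% to 97.5% for CPB/DHCA with 1 library left out, and that of miR-298 from 57.6% to 76.3% and from 46.7% to 78.0%. With TPM in place of tags these shares were 95.4%, 94.5%, 63.2% and 70.0%. For miR-298 the SD between libraries, from 3 to 29 tags each, is too wide for this to show stability.

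Deviations of same-numbered libraries from their group means correlated at 0.205, -0.147, -0.073 and 0.588. Only for number 4 was the same-numbered library the closest, so the libraries were not treated as paired. Such correlations cannot settle whether the rats had been paired. With the replicate number as a block, 31 miRNAs passed, and the log2 fold changes were -0.26, -0.30, -0.43 and -0.16 for miR-296-5p, miR-296-3p, miR-298-5p and miR-298-3p. Depth bears on every arm, since 1 tag is worth 1.20 to 2.00 CPM. Tags of miR-298-5p also varied between CPB/DHCA libraries by 13.1 times what counting error gives.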
